A study of Caenorhabditis elegans with 2 samples.

Results

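The genes described here encode the 8 subunits listed for the DREAM complex of Caenorhabditis elegans, namely lin-9, lin-37, lin-52, lin-53, lin-54, lin-35, efl-1 and dpl-1. They were taken by name from the WBcel235 annotation, which held all 8 among 19973 protein-coding nuclear genes. The measurement is chromatin immunoprecipitation with sequencing (ChIP-seq) of MADF-8. Its MADF domain is a fold that binds DNA and is akin to the Myb repeat. The values therefore say where MADF-8 was recovered at the genes that encode DREAM subunits, and they hold nothing on where the DREAM complex itself binds or on how strongly its genes are expressed. Both samples are biological replicates of 1 group. They are whole young adult worms aged 64 hours, synchronised by starving first-stage larvae after bleaching, of strain RW12322, in which CRISPR placed a TY1, EGFP and 3xFLAG tag on madf-8 (allele st12322, chromosome III). Chromatin was sheared by sonication and recovered with an antibody against GFP. Sex was not collected, there is no second condition, and a site in whole worms cannot be assigned to a tissue.

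DREAM joins an E2F and DP pair, a pocket protein of the retinoblastoma family, and a core called MuvB. In the worm EFL-1 and DPL-1 are the E2F and DP proteins, LIN-35 is the only pocket protein, and LIN-9, LIN-37, LIN-52, LIN-53 and LIN-54 form the core. The complex represses genes of the cell cycle and, in worm somatic cells, genes of the germ line. Several of its genes were found as class B synthetic multivulva (synMuv B) genes, which restrain vulval fates.

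The summit windows of 4 sites are shown first, since the results below turn on where these summits lie. Each runs from 50 bp before to 50 bp after the summit and is written 5′ to 3′ on the strand of the DREAM gene, from the RefSeq genome of WBcel235. The window at lin-54 stops where the exon of the neighbouring gene begins. Capitals mark the words CGAGACC, GCGCTCCAC and CGCGCGC and the E2F words TTTCCCGC and TTTGGCGC, all searched on both strands. CGAGACC, GCGCTCCAC and CGCGCGC were picked after the windows were read, from many words that more than 1 member has.
lin-9 (chrIII:8904184-8904284, minus strand): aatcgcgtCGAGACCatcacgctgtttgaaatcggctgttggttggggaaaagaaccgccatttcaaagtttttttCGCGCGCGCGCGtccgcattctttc
lin-52 (chrIII:9825661-9825761, minus strand): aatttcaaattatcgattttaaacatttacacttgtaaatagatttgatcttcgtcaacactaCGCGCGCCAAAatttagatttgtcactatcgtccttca
lin-54 (chrIV:13240652-13240737, plus strand): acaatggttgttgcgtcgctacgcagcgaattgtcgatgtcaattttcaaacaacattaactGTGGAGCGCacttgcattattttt
efl-1 (chrV:16965823-16965923, minus strand): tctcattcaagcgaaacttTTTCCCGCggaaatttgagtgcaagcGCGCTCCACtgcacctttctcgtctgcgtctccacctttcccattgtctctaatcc

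MADF-8 sites lay at 6 of the 8 DREAM genes, at all but lin-37 and dpl-1. A gene was counted when the summit of a site fell between 1000 bp upstream of its start and its end, in the set that the authors made from both replicates. That set keeps sites below a limit on the irreproducible discovery rate (IDR), a measure of how poorly a site repeats between ranked lists. By the same rule 10.05% of all protein-coding genes had a site, and the share was 10.03% among the 16513 genes whose length lies within the range of the members (668 to 7929 bp). Each of the 6 genes had a single site. Of the 2007 coding genes with a site, 215 had 2 or more, which is 1.08% of all coding genes. Each summit lay upstream of the gene and outside every annotated gene, and 7.89% of coding genes had a site in those 1000 bp. Over all 2255 links of a gene to a site, 74.2% had the summit upstream of the start. Since the genes were listed with earlier results of these data known, no test was made of the count.

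**Figure D1:**
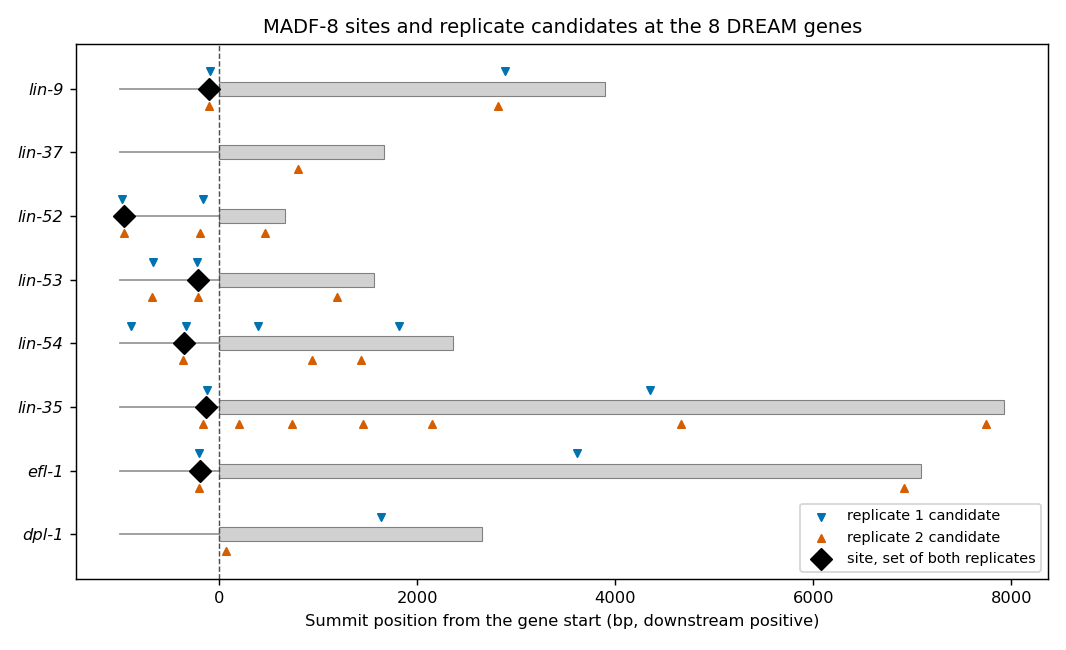
Summits at each DREAM gene in bp from the gene start, with the gene body as a grey bar and the 1000 bp upstream as a line; diamonds are sites of the set from both replicates, and triangles are candidates of any score in the ranked list of each replicate. The 6 sites all lie left of the dashed start line, and lin-37 and dpl-1 have none.

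The sites differed widely in strength. The signal is the authors' value for each site, a single value with no SD, and it is used here to place a site within its list. At the 6 genes it ran from 95.7 to 842, an 8.80-fold range, with a median of 214, against a median of 119.66 over all 1972 sites. The sites at lin-9, lin-53, lin-54 and lin-35 lay above that median and those at lin-52 and efl-1 below it. Genes with a site at least as strong as the weakest of the 6 made up 7.34% of all protein-coding genes.

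Among the genes of the MuvB core, lin-9 had the strongest site. LIN-9 is a scaffold of the core. Its gene (III, 8900237 to 8904131, minus strand) had a site from 8904106 to 8904352 with a signal of 842, rank 44 of 1972, so that 2.18% of sites were stronger. The summit lay 103 bp upstream of the start. The signal was 348 in the replicate 1 set (rank 56 of 1347) and 492 in the replicate 2 set (rank 41 of 1608), and the summits of the replicates were 6 bp apart. The site is in the upper part of all 3 sets. The next coding gene, unc-32, which encodes a subunit of the vacuolar proton pump, runs the other way and starts 1381 bp from the summit. No other coding gene had this summit in its window.

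The second strongest site was at lin-53. LIN-53 is a WD40 protein that binds histones and also serves in other chromatin complexes. The gene (I, 9618196 to 9619760, minus strand) had a site from 9619897 to 9620058, with a signal of 424 and 8.27% of sites stronger. The signals were 177 in replicate 1 (rank 181) and 248 in replicate 2 (rank 157), with summits 10 bp apart. This site is shared with a neighbour. The summit lay 220 bp upstream of lin-53 and 247 bp upstream of nra-2, a gene on the other strand that encodes a nicalin-like protein acting on acetylcholine receptors. The data give no way to assign it to either gene. The paralog rba-1 lies 88 bp downstream of lin-53 on the same strand and had no site by the rule.

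The site at lin-54 lay closer to a ribosomal protein gene than to lin-54. LIN-54 is the DNA-binding subunit of the core. The gene (IV, 13241044 to 13243401, plus strand) had a site from 13240596 to 13240761 with a signal of 300.0, rank 284, and 14.4% of sites stronger. In the replicates the signals were 119 (rank 342 of replicate 1) and 179 (rank 259 of replicate 2), with summits 26 bp apart. The summit was 357 bp upstream of lin-54 and 36 bp upstream of rpl-12, which encodes a protein of the large ribosomal subunit and runs the other way. The ranked lists held further candidates within lin-54, the highest with a score of 263 in replicate 2 and 106 in replicate 1, which did not overlap. When each site was given only to the coding gene with the nearest start, the site went to rpl-12.

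The site counted for lin-52 lay at the far edge of the window. LIN-52 is a small protein that links the core to the pocket protein. The gene (III, 9824083 to 9824750, minus strand) had a site from 9825573 to 9825848, with its summit 961 bp upstream and a signal of 100.3 (62.1% of sites stronger). Between summit and gene lies ZK632.9, on the same strand and 126 bp from lin-52, whose start was 279 bp from the summit and nearest to it. A window that begins 500 bp upstream would leave lin-52 with no site.

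Replicate support for lin-52 was also uneven. The replicate 2 set held the site (signal 52.2, rank 1307), and the replicate 1 set did not. The ranked list of replicate 1 had an overlapping candidate with a signal of 47.1 and a scaled IDR score of 745, below the 830 at which the sets begin, and a global IDR of 0.0161. A score of 830 corresponds to a global IDR of 0.0100. A second candidate, inside ZK632.9 and 193 bp upstream of lin-52 in the ranked list of both replicates, had a signal of 61.6 and a score of 503, which kept it out of the set. Its overlapping candidates scored 28 in replicate 1 and 527 in replicate 2.

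The remaining core gene, lin-37, had no site in any of the 4 sets. LIN-37 takes part in repression by the complex. The gene (III, 7070890 to 7072552, minus strand) lies 60 bp downstream of ZK418.5 on the same strand, and that gene had no site either. The nearest site of the set from both replicates was 11670 bp from the start, on the downstream side, with a signal of 49.5. The ranked list of replicate 1 had no candidate in the window, and that of replicate 2 had a candidate within the gene with a score of 58. The list of both replicates had a candidate with a score of 19 at 968 bp upstream, just inside the window edge, as the site of lin-52 is.

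**Figure D2:**
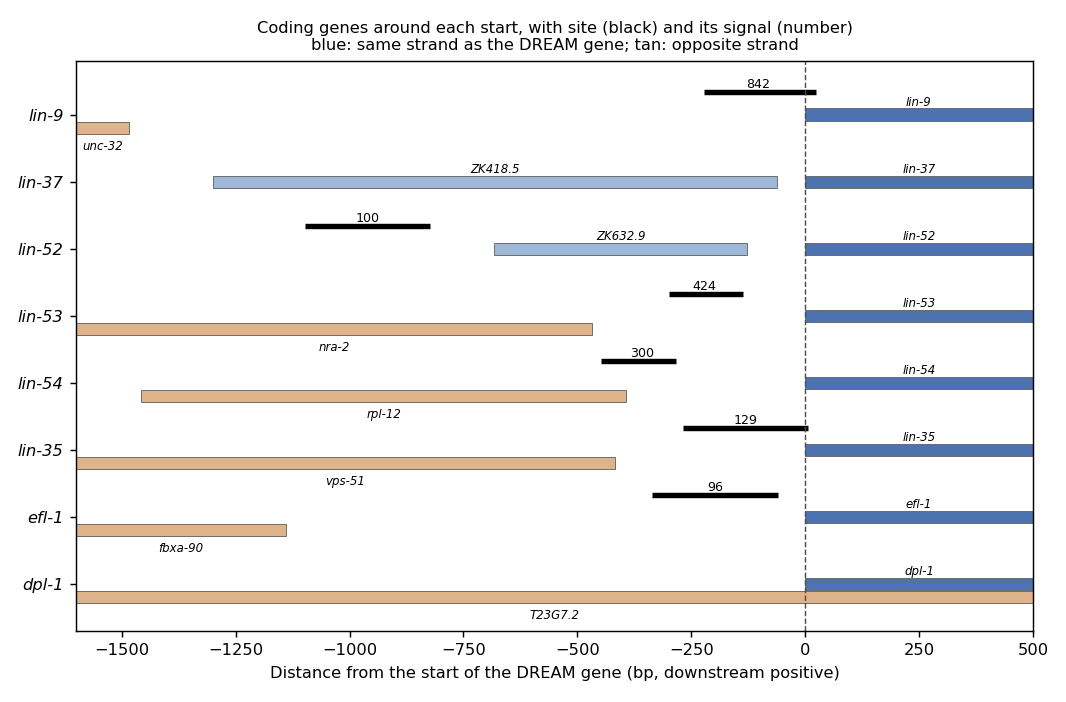
Coding genes around the start of each DREAM gene, in bp from that start; dark blue bars are the DREAM genes, light blue bars other genes on the same strand, tan bars genes on the opposite strand, and black lines the sites with their signals. The sites at lin-53, lin-54 and lin-35 lie between 2 starts that point apart, and that at lin-52 lies beyond ZK632.9.

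The pocket protein gene lin-35 had a site of middling strength between divergent genes. LIN-35 is the worm member of the retinoblastoma family. The gene (I, 5807709 to 5815637, plus strand) had a site from 5807440 to 5807715, with its summit 131 bp upstream, a signal of 129 and 45.1% of sites stronger. The signal was 74.4 in replicate 1 (rank 646 of 1347) and 59.2 in replicate 2 (rank 1132 of 1608), and the summits were 36 bp apart. It was the only member whose signal was lower in replicate 2. On the other strand vps-51, which encodes a subunit of a vesicle tethering complex, starts 287 bp from the summit. The body of lin-35, the longest of the 8 genes, held 1 further candidate of replicate 1 and 6 of replicate 2, none of which overlapped between the replicates and none of which scored above 79. Some of them lie in C32F10.4, a gene on the other strand inside lin-35.

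Of the E2F and DP genes, efl-1 had a site and dpl-1 had none. EFL-1 is an E2F protein and binds DNA together with DPL-1. The gene efl-1 (V, 16958590 to 16965675, minus strand) had a site from 16965735 to 16966010, with its summit 198 bp upstream and a signal of 95.7, the weakest of the 6 (65.8% of sites stronger). The replicate signals were 46.5 (rank 1186 of replicate 1) and 48.3 (rank 1405 of replicate 2), in the lowest part of each set. The score of 860 in replicate 2 was the lowest of any member site in a replicate set, and the summits were 6 bp apart. The F-box gene fbxa-90 starts 941 bp from the summit on the other strand and so had the same site by the rule, though not within its promoter window.

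The gene dpl-1 (II, 9169910 to 9172565, plus strand) lies within the span of T23G7.2 on the other strand. The nearest site of the set from both replicates was 41997 bp from its start. Its window held 1 candidate in the ranked list of replicate 1, with a score of 14, and 1 in that of replicate 2, with a score of 16, and these did not overlap. The ranked list of both replicates had a candidate within the gene with a score of 98 and a signal of 26.8, and one 524 bp upstream with a score of 19. The 2 partners of the E2F and DP pair thus lay at opposite sides of the threshold in these lists, although the list sizes and the unknown depth set no limit below which a site at dpl-1 can be called absent.

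**Figure D3:**
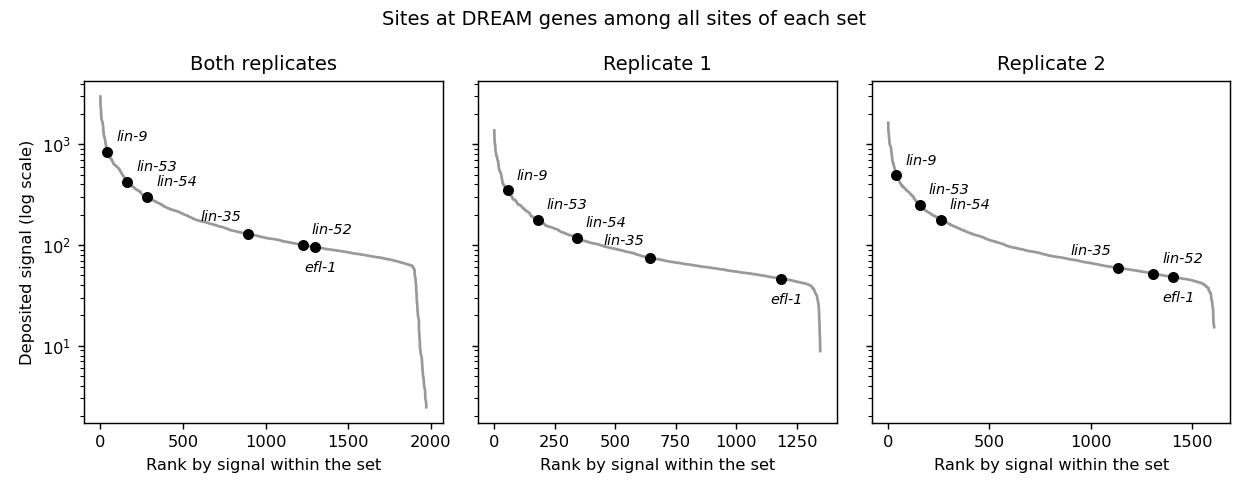
Deposited signal (log scale) against rank within the set of both replicates, the replicate 1 set and the replicate 2 set, as grey lines, with sites at DREAM genes as labelled points. In each set lin-9, lin-53 and lin-54 have the strongest member sites, with lin-54 at rank 342 of 1347 in replicate 1. The site at lin-52 is missing from replicate 1.

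The same genes had sites in each replicate alone, apart from lin-52. The replicate 1 set held sites at 5 members (background 7.36% of coding genes) and the replicate 2 set at 6 (background 8.72%). Sites of the replicate sets that overlapped by at least 1 bp lay at 5 members, against 6.46% of all coding genes. The companion set named conservative had the same 6 members (background 10.1%). Candidates of any score that overlapped between the ranked lists lay at 6 members, but 41.9% of all coding genes had such a pair, so a pair of this kind alone sets a gene little apart. All 8 members had a candidate of some score in the ranked list of both replicates, as did 69.8% of all coding genes. Besides the pairs at the 6 sites there were 3 more. They lay in the body of lin-9 (scores of 127 and 161), in ZK632.9 upstream of lin-52, and upstream of lin-53 (87 and 16), all below the threshold. Over the list of both replicates the candidate in lin-9 scored 573 with a signal of 54.0, and its summit was 2840 bp downstream of the start.

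Signals of the 5 members found in both replicate sets kept the same order in each. From strongest to weakest this was lin-9, lin-53, lin-54, lin-35 and efl-1. The ratio of the replicate 2 to the replicate 1 signal was 1.41 at lin-9, 1.40 at lin-53, 1.504 at lin-54 and 1.0388 at efl-1. At lin-35 it was 0.796. Over 1150 matched pairs of sites the median ratio was 1.23, with quartiles of 1.0404 and 1.42. The ratio at lin-54 lay above the upper quartile, and those at lin-35 and, by a small margin, efl-1 lay below the lower. These signals come from lists scaled separately, with a scaling that the sources used here do not give, and a lower ratio at lin-35 is not evidence of less MADF-8 there.

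**Figure D4:**
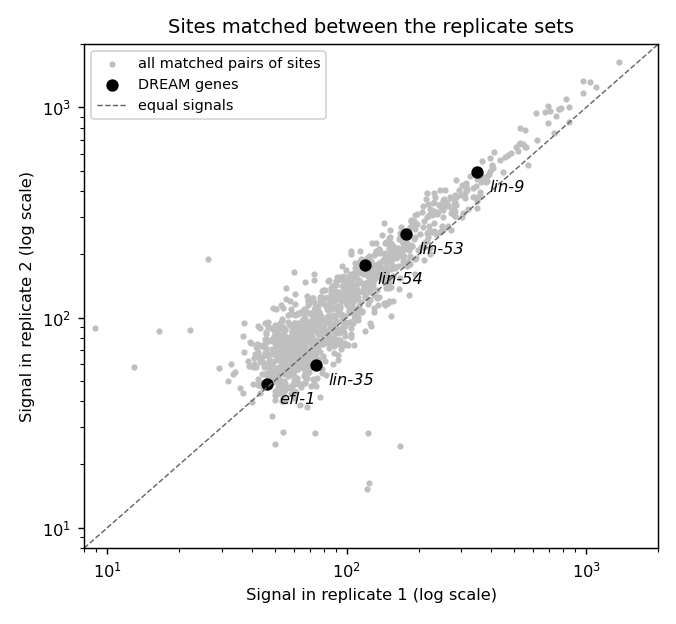
Signal in replicate 1 against signal in replicate 2 (both log scales) for sites that overlap between the replicate sets, with all pairs in grey, the 5 DREAM genes in black and equal signals as a dashed line. The points of lin-9, lin-53 and lin-54 lie above the dashed line and that of lin-35 below it.

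The 3 strongest member sites were narrower than the common width. In the set of both replicates 73.0% of sites had the same width of 276 bp, and these had a median signal of 98.9, against 300.0 for narrower sites. The sites at lin-52, lin-35 and efl-1 had the common width. The site at lin-9 was 247 bp wide, that at lin-54 166 bp and that at lin-53 162 bp. Among these 3 the strongest, lin-9, was the widest, and width was not compared with signal over the other narrower sites. The peak caller that set the widths is not given in the sources used here.

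Of the 5 sites within a promoter window, 3 lay in the windows of a pair of coding genes. The promoter window covers the 500 bp before and the 100 bp after the start of a protein-coding transcript, and 6.97% of coding genes had a site there. The shared sites were those of lin-53 with nra-2, lin-54 with rpl-12, and lin-35 with vps-51. Among all 1137 promoter sites 308 (27.1%) lay in the windows of 2 or more coding genes. The sites at lin-9 and efl-1 were in no other promoter window. Given to the nearest start only, sites remained at 4 members, lin-9, lin-53, lin-35 and efl-1, and at 7.12% of all coding genes. Annotated starts in the worm are often trans-splice sites, so transcription may begin upstream of the starts used here. Summits upstream of a start may then lie closer to where transcription begins than the distances given, or past it.

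The summit windows were searched for a fixed list of words. Some were chosen earlier on these data, so their higher share at all sites than upstream of genes is not an independent result. The words AAGGCGCA and AAAGGCGC, which overlap each other by 7 bases and were chosen earlier on these data, were within 50 bp of the summit at 12.1% of all sites each and at none of the 6 member sites. The third word of that kind, GCGAGACC, was present at 8.82% of all sites and, among members, at lin-53, where its centre was 0.5 bp from the summit. In windows of 101 bp placed 209 bp upstream of every coding gene start these words were present in 0.731%, 0.806% and 0.566%, in the same order. With 6 windows, counts of 0 and 1 cannot be told from the shares of the whole set. The shorter word GGCGC, contained in the first 2, was at 38.7% of all sites and at lin-52 alone among members, against 5.66% of gene start windows.

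Words of the E2F kind were at 2 member sites. The word TTTCCCGC was at efl-1, centred 27.5 bp from the summit, and at 4.31% of all sites, against 0.591% of gene start windows. The word TTTGGCGC, which contains GGCGC, was at lin-52, centred 19.5 bp from the summit, and at 2.94% of all sites, against 0.350% of gene start windows. The related word TTCCCGCC, which shares 7 bases with TTTCCCGC, was at no member site and at 2.94% of all sites. The cell cycle homology word TTTGAA, a type of element that LIN-54 and its relatives bind, was at 4 member sites (lin-9, lin-52, lin-53 and lin-54). It was less frequent near summits than upstream of genes in general, with 24.7% of all sites against 30.0% of gene start windows. A match is a description of the letters and does not show a bound factor.

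Many words recurred among the member windows, and those named here were picked after the windows were read. Not all recurring words were more frequent at sites. TTTCAAA, at lin-9, lin-52, lin-53 and lin-54, was at 11.4% of all sites against 15.8% of gene start windows. The word CGAGACC, which is GCGAGACC without its first base, was at lin-9 and lin-53 and at 14.5% of all sites, against 1.17% of gene start windows. It was centred 39 bp from the summit at lin-9 and on the summit at lin-53. Because GCGAGACC was chosen earlier on these data, the higher share of CGAGACC at sites is not an independent result. The word GCGCTCCAC was at lin-54 and efl-1, 31 and 1 bp from the summit, on opposite strands relative to the DREAM gene. At lin-54 it is on the strand of rpl-12, whose start is nearer to that summit. The word was at 33 of all sites (1.67%) and in 0.145% of gene start windows. The alternating word CGCGCGC was at lin-9, lin-52 and lin-35, the last at the summit, and at 8.77% of all sites against 0.641% of gene start windows. At lin-52 it overlaps the match to TTTGGCGC. The G and C content of the windows ran from 31.7% at lin-52 to 54.5% at lin-53, with a median of 43.6% over all sites, and its part in these shares was not tested.

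The 2 members with no site were also searched, in the 500 bp before and the 100 bp after the gene start. The promoter of dpl-1 held GCGAGACC, a word found in 2.55% of all promoters of that length, and GGCGC, found in 25.6%. The word TTTGAA, found in 85.5% of promoters, was in the promoters of both genes. The promoter of lin-37 held none of the other 7 words. Over the 8 genes GCGAGACC was in the promoters of lin-53 and dpl-1, so a gene with a strong site and a gene with none both carry it.

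Some genes of related pathways had sites as well. In a mixed list of 25 other E2F, retinoblastoma pathway and synMuv genes, 9 had a site by the same rule, as did 10.05% of all coding genes. Signals at the 9 ran from 81.7 to 374, with a median of 228. The strongest were at ubc-9 (IV, 4650616 to 4650801, signal 374), which encodes the SUMO-conjugating enzyme, smo-1 (I, 1340125 to 1340266, signal 292), which encodes SUMO, and htz-1 (IV, 4445860 to 4445985, signal 274), which encodes the histone variant H2A.Z. The site at htz-1 also counted for wapl-1. The list is not of class B alone, since lin-8, lin-38, lin-15A and lin-56 are class A synMuv genes. Of these lin-8 (signal 226) and lin-38 (signal 168) are among the 9. In the set of both replicates the other E2F genes efl-2 and efl-3 had no site, nor did lin-13, lin-15A, hpl-2, met-2 and hda-1. The synMuv B gene lin-36 had none in that set and had one in the set of replicate 2. The set of replicate 1 had sites at 7 of the 25 (7.36% of all coding genes) and that of replicate 2 at 10 (8.72%). Within the promoter window the count was 5 of 25, against 6.97% of all coding genes.

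Among 12 genes for cyclins, cyclin-dependent kinases and their inhibitors, which act upstream of pocket proteins and in mitosis, 8 had a site. Of all coding genes 10.05% had a site by the same rule. The strongest were at the B-type cyclin genes cyb-2.2 (I, 4114519 to 4114773, signal 1189), cyb-2.1 (IV, 10985622 to 10985871, signal 677) and cyb-3 (V, 15395454 to 15395640, signal 423). The site at cyb-3 also counted for T06E6.1. Of the genes that act at the entry to S phase, cye-1 had a site with a signal of 222. The site at cyd-1, with a signal of 116, lay within the gene, 4765 bp from its start. The kinase genes cdk-4 and cdk-2 had none. Of the inhibitor genes, cki-2 had a site with a signal of 168, 91 bp downstream of its start, and cki-1 had none. Within the promoter window the count was 5 of 12, against 6.97% of all coding genes. The site at lin-9 was thus weaker than that at cyb-2.2 and stronger than those at every gene of the other list. Both lists, like the members, were chosen with earlier results of these data known. Counts in these lists and among the members are descriptions, and the difference between them was not tested.

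**Figure D5:**
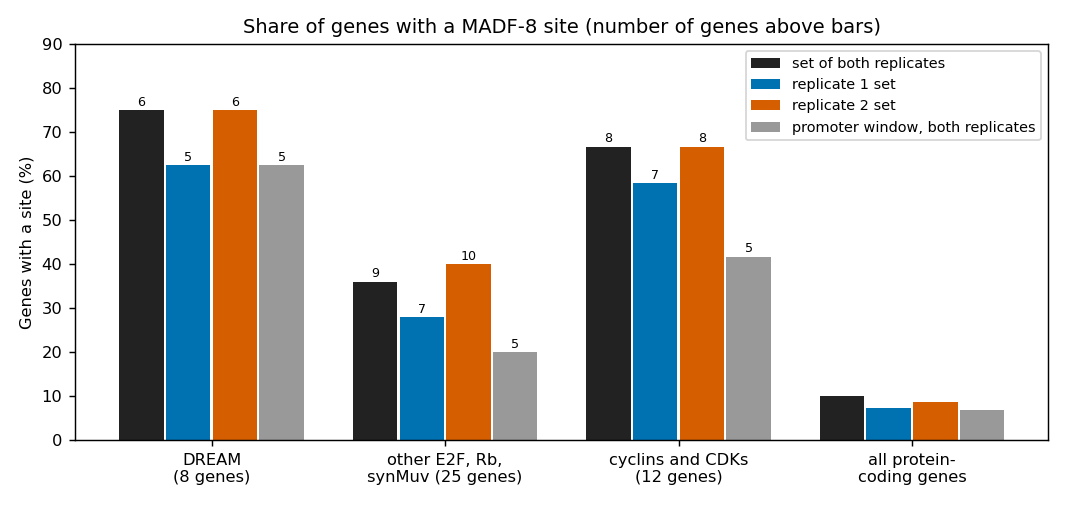
Percentage of genes with a MADF-8 site, with the number of genes above each bar, for the DREAM genes, 25 other E2F, Rb and synMuv genes, 12 cyclin and kinase genes and all protein-coding genes, in 3 sets and within the promoter window. Each list stands above all coding genes, of which 6.97% to 10.05% had a site.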

How the data were processed

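Peak lists of MADF-8 ChIP-seq from 2 replicates were used. Per the file descriptions, the authors made each list on assembly ce11, from the alignments of 1 or of both replicates with a control file not analysed here. The score the authors deposited is a scaled IDR, the deposited signal is 1 value per site, and the −log10 of the global IDR was deposited in the ranked lists. Depth is unknown, and for the aligner, caller and signal scale the methods are not given in the sources here. Summits were placed by adding the deposited offset to each site start. The ranked lists of the pair hold 16 columns of values per replicate with no sample name, which were not used.

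All sites fit within the chromosome lengths of WBcel235, the assembly of the gene models used (Ensembl release 115). Members and gene lists were chosen with earlier results of these data known. Named are all members and neighbours of their sites, and the 3 genes with the strongest site in each other list. Other genes of those lists, and the words shared by member windows, were named after their values were seen. Placement of sites was tested on simulated data. Python 3.11.15, numpy 2.4.6, pandas 2.3.3, scipy 1.17.1 and matplotlib 3.10.9 were used. Alternatives were other sets, each replicate alone, stricter thresholds, other windows, any overlap and the nearest start only.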

Additional observations from a re-analysis of the deposited data

How the results depend on the processing

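The number of DREAM genes with a site was 4 to 6 under all 10 alternatives. It was 6 without replicate 1 and 5 without replicate 2, where lin-52 was lost. It was 5 with the promoter window or with 500 bp upstream, also without lin-52, and 4 among sites with a signal at or above the median (lin-9, lin-53, lin-54 and lin-35) or with the nearest start only (lin-9, lin-53, lin-35 and efl-1). The background moved with each rule, least with the conservative set, where it was 10.1%. The percentage of coding genes with a site was 7.36 without replicate 2 and 8.72 without replicate 1, 9.20 with a score of 1000 only, 5.76 among sites at or above the median signal, 6.97 with the promoter window, 8.49 with 500 bp and 12 with 2000 bp upstream, 10.8 by any overlap and 7.12 with the nearest start only. The list of other E2F, Rb and synMuv genes had 5 with a site in the promoter window and 5 with 500 bp upstream, and the cyclin list had 5 in the promoter window and 5 with the nearest start only. Of 50 alternative values of these and like results, 37 stayed within 1.5 times (counts) or within the 95% Wilson interval (the percentage). The percentage left its interval under every alternative but the conservative set. The limit for counts is wide, since a fall from 6 to 4 members stays within it. Some alternatives could change little, as the conservative set has 1977 sites against 1972, and all 6 member sites have a score of 1000. The replicate sets are smaller, with 1347 and 1608 sites, so a given rank is a higher percentage of them. The percentage of sites stronger than that at each gene was less stable, and 10 of its 17 alternative values moved beyond the 95% Wilson interval. It went from 45.1 to 70.3 at lin-35 and from 62.1 to 81.2 at lin-52 without replicate 1, and from 2.18 to 4.08 at lin-9, from 8.27 to 13.4 at lin-53 and from 14.4 to 25.3 at lin-54 without replicate 2. At efl-1 it went from 65.8 to 87.3 without replicate 1 and 88.0 without replicate 2. The order of the 5 genes in both replicate sets was the same in each. No paired analysis was possible because there is a single group. Depth is unknown, so a gene with no site cannot be called unbound.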
